A study of Mus musculus with 2 samples.

Results

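The genes described here are 48 cell-cycle genes, 22 whose products act in S phase, when DNA is copied, and 26 whose products act in G2 and mitosis (G2/M), when the copied chromosomes are separated. They were chosen by symbol, and all 48 were found among the 32288 features of the count matrices. The cells were periosteal cells of femurs and tibias from mice described as 4-week-old wild-type (WT) C57BL6. They were sorted by FACS on CD45, CD31, Ter-119, and DAPI, so that blood and endothelial cells would be left out. A feature named EGFP was, however, among the leading genes of a stromal cluster led by Col10a1 and Mgp (67 and 74 cells). Where these transcripts came from was not tested. Droplet-based scRNA-Seq (10x Genomics) gave 2 libraries, replicates 1 and 2 of 1 group. The sources used here do not say how many mice stand behind each library, and p-values therefore measure only the spread between these libraries, which may be technical. There was no treated group, and the question asked was which stromal and blood cell types carried S or G2/M transcripts, and in what proportion.

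A dividing cell licenses its replication origins with the Mcm2 to Mcm7 helicase, loaded by Cdc6 and Cdt1, and fires them as cyclin E (Ccne1, Ccne2) activates its kinase. Tyms, Dut, and the ribonucleotide reductase subunits Rrm1 and Rrm2 supply nucleotides, while Pcna, Pclaf, Rfc2, and Fen1 work at the replication fork. Cyclin A and cyclin B with Cdk1 then drive entry into mitosis, the Aurora and Plk1 kinases and kinesins build the spindle, and Cdc20 and Ube2c, parts of the system that tags cyclin B for degradation, end it. In young bone, dividing cells are known among marrow blood progenitors, growth cartilage, and bone-forming precursors, whereas mature neutrophils and late red cell precursors have left the cycle.

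S and G2/M genes differ in the short sequence motifs around their start sites. Promoter windows of 250 bases before to 50 bases after the start (RefSeq, GRCm38.p6) matched 41 of the 48 members. Among these, TTTGAA, the core of the element called CHR, was found on either strand in 73.9% of 23 G2/M windows and 11.1% of 18 S windows, against 18.1% of 27025 windows of all genes. CCAAT stood in 78.3% of G2/M, 61.1% of S, and 37.9% of all windows, and at least 2 CCAAT in 56.5%, 44.4%, and 12.2%. A site for the E2F factors, searched as TTCCCGC or else as TTGGCGC, stood in 55.6% of S, 13% of G2/M, and 6.93% of all windows. Not all matches stood before the start. In Cenpf, Cenpa, Aurka, Bub1b, Kif20b, Kif23, Plk1, Hmmr, Ttk, and Anln, CHR was found only after it. The same held for E2F in Mcm3 and Cdt1. A match is a description of the letters, not of binding. The 170 bases before the start of 3 genes of each kind are shown because they carry these motifs close together. They run 5′ to 3′ on the gene's strand, and capitals mark these motifs, read on either strand. Ube2c, Top2a, and Cdk1 are G2/M genes, and Mcm5, Mcm6, and Rrm1 are S genes.
Ube2c: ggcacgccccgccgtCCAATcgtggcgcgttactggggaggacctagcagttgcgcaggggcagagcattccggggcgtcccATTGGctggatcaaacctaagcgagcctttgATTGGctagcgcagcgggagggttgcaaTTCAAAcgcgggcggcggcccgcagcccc
Top2a: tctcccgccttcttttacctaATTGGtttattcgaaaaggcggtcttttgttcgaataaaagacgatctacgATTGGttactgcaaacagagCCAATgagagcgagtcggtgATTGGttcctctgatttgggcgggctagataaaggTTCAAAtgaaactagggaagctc
Cdk1: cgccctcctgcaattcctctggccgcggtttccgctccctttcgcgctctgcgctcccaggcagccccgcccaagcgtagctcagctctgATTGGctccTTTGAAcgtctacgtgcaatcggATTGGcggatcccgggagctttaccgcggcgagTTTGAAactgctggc
Mcm5: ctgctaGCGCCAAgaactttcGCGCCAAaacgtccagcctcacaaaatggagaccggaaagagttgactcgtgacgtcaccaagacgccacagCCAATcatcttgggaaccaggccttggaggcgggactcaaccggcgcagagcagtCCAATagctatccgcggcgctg
Mcm6: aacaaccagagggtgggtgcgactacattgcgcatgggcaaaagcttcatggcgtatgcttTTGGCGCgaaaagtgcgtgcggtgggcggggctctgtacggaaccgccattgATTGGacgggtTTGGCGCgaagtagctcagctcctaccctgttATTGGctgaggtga
Rrm1: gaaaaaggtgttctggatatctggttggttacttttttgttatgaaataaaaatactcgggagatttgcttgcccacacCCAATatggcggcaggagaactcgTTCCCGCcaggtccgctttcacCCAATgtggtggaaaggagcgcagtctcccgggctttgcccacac

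Ube2c lies at chr2:164769759-164769928 on the plus strand, Top2a at chr11:99024190-99024359 on the minus strand, and Cdk1 at chr10:69352913-69353082 on the minus strand. Mcm5 lies at chr8:75109339-75109508 on the plus strand, Mcm6 at chr1:128359706-128359875 on the minus strand, and Rrm1 at chr7:102441525-102441694 on the plus strand.

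Library 1 held 9932 barcodes and library 2 held 3659, of which 6276 and 2893 had at least 500 genes, at least 500 unique molecular identifiers (UMIs), and at most 10% mitochondrial UMIs. Their median depth was 8164 and 6279 UMIs. Members made up 0.787% of the kept UMIs of library 1 and 0.388% of those of library 2. Clustering without cell-cycle genes gave 33 clusters, put together by markers into 26 groups, of which 17 carried a cell type name. Blood-like cells made up 91.9% of library 1 and 60.7% of library 2, and stromal cells 7.14% and 39.0%, so the sort had not removed blood cells. Ptprc, which encodes CD45, had a UMI in 51.1% and 43.5% of blood cells and in 6.25% and 1.24% of stromal cells. Of the kept barcodes, 254 (4.05%) and 63 (2.18%) carried high levels of the markers of a lineage other than that of their cluster. They are called barcodes with markers of 2 lineages here, and results that rest on them are given with and without them. The markers of their own cluster were not measured for this, so a cell of 1 lineage placed in the wrong cluster also counts. The libraries shared 7 kept barcodes.

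S and G2/M transcripts were mostly found in blood cells. Summed over the 22 S genes, the level was 4207 CPM (UMIs per 1000000 UMIs of the group) in blood cells of library 1 and 3544 in library 2, against 439 and 402 in stromal cells. Summed over the 26 G2/M genes, it was 4170 and 3216 in blood cells, against 321 and 246 in stromal cells. All 22 S and all 26 G2/M genes were lower in stroma than in blood in both libraries, as were 42.5% of the 13342 genes tested, while 46.3% were higher. The median S gene was 11.3-fold and 9.67-fold lower, and the median G2/M gene 12.4-fold and 14-fold lower. The smallest fold in library 1 was 4.08 for Rfc2, a subunit of the clamp loader, among S genes, and 5.05 for Anln, a scaffold of the cleavage furrow, among G2/M genes. Without the barcodes with markers of 2 lineages, the stromal G2/M level was 178 and 209 CPM.

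**Figure D1:**
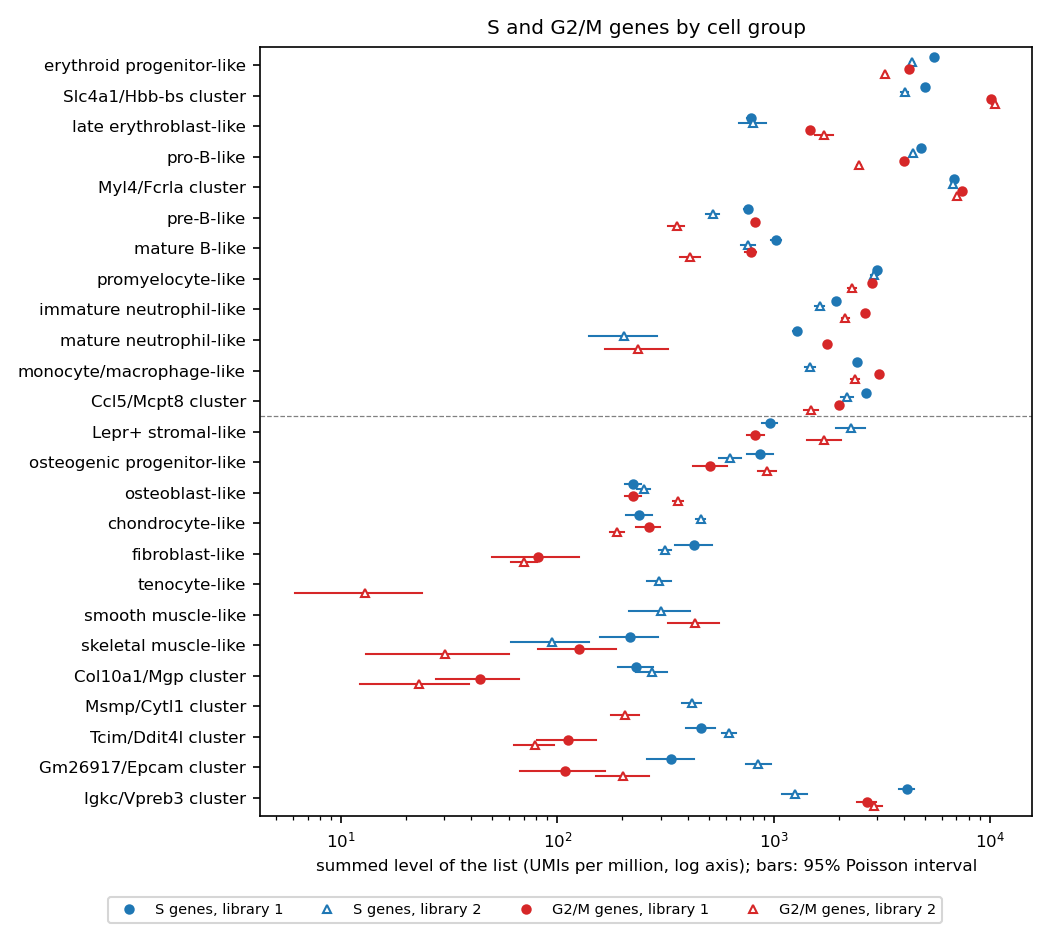
Summed level of the S genes (blue) and G2/M genes (red) in each cell group, in CPM on a log axis, with 95% Poisson intervals; filled circles are library 1 and open triangles library 2, and the dashed line parts blood (above) from stroma (below). The Slc4a1/Hbb-bs cluster reached 10072 and 10513 CPM for G2/M genes, while fibroblast-like cells stood at 81.5 and 70.3.

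To compare groups at matched depth, each cell with at least 2000 UMIs was thinned to 2000 UMIs. Shallower cells were left out of every share, here and at the other depths tried. For stroma this left 387 of 448 and 1019 of 1127 cells, so the shares describe the deeper cells. A cell was called S-positive or G2/M-positive when it held UMIs of at least 2 different genes of that list. By this measure, 52.9% of blood cells in library 1 and 45.2% in library 2 were S-positive, and 50.2% and 32.7% were G2/M-positive. Of stromal cells, 13.2% (51 of 387) and 14.1% (144 of 1019) were S-positive, and 5.68% (22) and 4.02% (41) were G2/M-positive. Of these 22 and 41 cells, 3 and 7 were of the Igkc/Vpreb3 cluster, which B-lineage genes led, and 4 and 1 were Lepr+ stromal-like. Both groups were rich in barcodes with markers of 2 lineages. Without such barcodes, stromal cells positive for either list made up 14.8% and 15.9%, against 16.3% in both libraries. Mature neutrophil-like cells, which do not divide, were taken as the background, and 9.65% of 311 and 3.03% of 33 were S-positive and 12.5% and 0% G2/M-positive. The 0 of 33 cells allows a share of up to 9.09%. In library 1, 20.5% of the barcodes of that group carried markers of 2 lineages, and without them its shares were 4.45% and 4.05%. All intervals and limits given here cover counting error only. No test of shares was made, and an overlap of 2 intervals does not show that shares are alike.

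**Figure D2:**
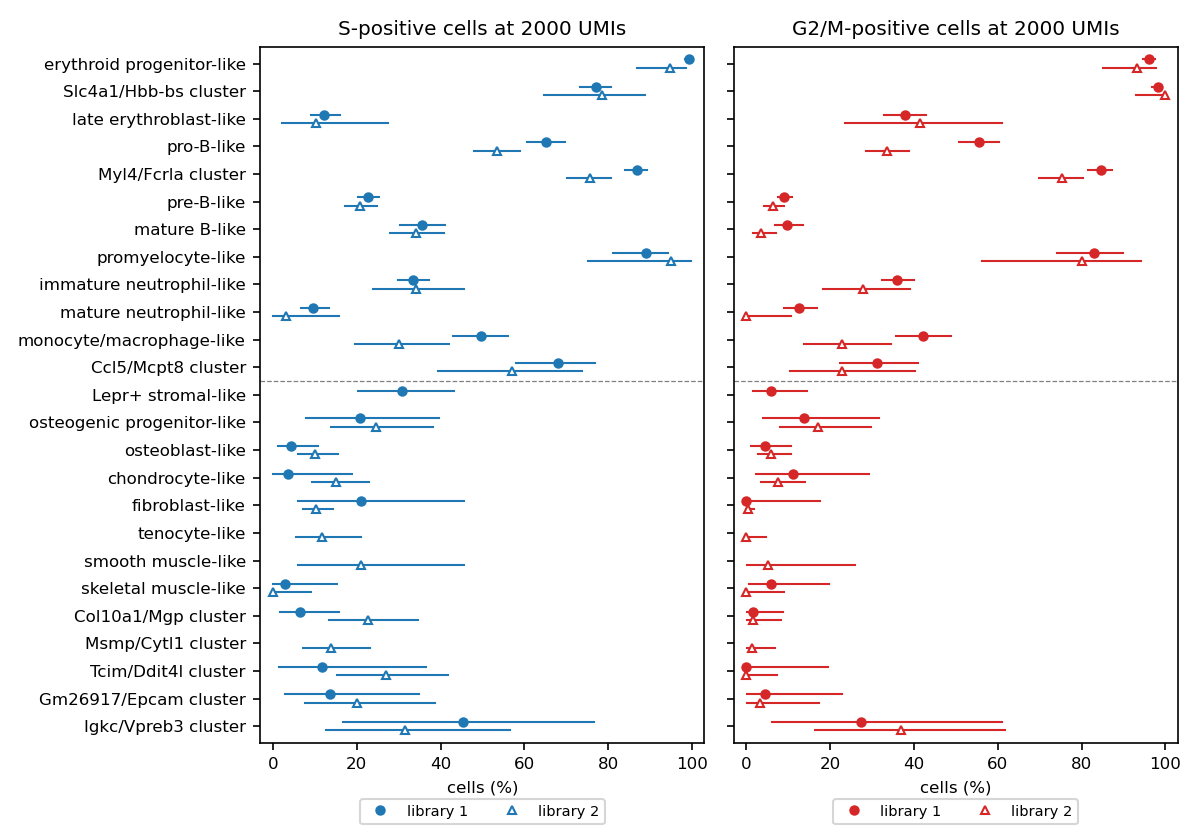
Share of cells, in percent, with UMIs of at least 2 S genes (left) or at least 2 G2/M genes (right) after thinning to 2000 UMIs, with exact 95% binomial intervals, in each blood and stromal group with at least 10 such cells in a library. Erythroid progenitor-like cells, the Slc4a1/Hbb-bs cluster, promyelocyte-like cells, and the Myl4/Fcrla cluster sit highest of the groups drawn in both panels, and of stromal groups only the Igkc/Vpreb3 cluster exceeds 20% for G2/M genes.

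In the erythroid lineage, the progenitors carried both lists, and the Slc4a1/Hbb-bs cluster more G2/M than S UMIs. The late erythroblasts had the lowest level of both lists, with more G2/M than S UMIs. S genes summed to 5528 and 4358 CPM in erythroid progenitor-like cells, to 4999 and 4037 in the Slc4a1/Hbb-bs cluster, and to 784 and 802 in late erythroblast-like cells. G2/M genes summed to 4230 and 3287, to 10072 and 10513, and to 1468 and 1709. The ratio of S to G2/M UMIs was therefore 1.31 and 1.33 in progenitors, 0.496 and 0.384 in the Slc4a1/Hbb-bs cluster, and 0.534 and 0.469 in late erythroblasts. The Slc4a1/Hbb-bs cluster, named after its leading genes, a red cell anion exchanger and a beta-globin, held 523 and 56 cells and stayed without a cell type name, since it held 5 erythroid progenitor markers while late erythroblast markers (Slc4a1, Alas2, Hbb-bt, and Hba-a1) were among its leading genes. The progenitors themselves were of 3 clusters. Those led by Car1 had an S level of 4477 and 3274 and a G2/M level of 3154 and 2460, those led by Smim1 6868 and 5776 and 5501 and 4045, and those led by Tac2, 113 and 11 cells, 8701 and 8167.5 and 7974 and 8089. Both lists were thus lowest in the Car1 and highest in the Tac2 cluster in each library.

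At matched depth, 99.2% of 785 and 94.7% of 75 erythroid progenitor-like cells were S-positive and 96.2% and 93.3% G2/M-positive. In the Slc4a1/Hbb-bs cluster 77.2% and 78.4% were S-positive and 98.3% and 100% G2/M-positive, and 21.4% and 21.6% held G2/M genes without S genes. Of late erythroblast-like cells, 12.2% and 10.3% were S-positive and 37.8% and 41.4% G2/M-positive. Without the barcodes with markers of 2 lineages, 20.8% and 30.3% of that group, the S share was 3.09% and 9.09% and the G2/M share 35.1% and 45.5%, and the summed levels were 156 and 159 CPM for S genes and 1036 and 1614 for G2/M genes. The G2/M share thus stayed above that of the background cells in both libraries.

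From progenitors to the Slc4a1/Hbb-bs cluster, S genes moved in both directions in plain CPM. Of 22 S genes, 14 were lower in the cluster in both libraries, a share near the 57.6% of all genes tested that were lower, and 7 were higher, where 13% of all genes were. The 14 included the helicase subunits Mcm2 to Mcm7, the loading factor Cdt1, Gins2, Ccne1, Rrm1, Rfc2, and Dut. Dut, the enzyme that keeps uracil out of DNA, stood at 994 and 1075 CPM in progenitors and at 276 and 233 in the cluster. Mcm6 stood at 278 and 177 against 170 and 87.3. The 7 higher genes were Pcna, Tyms, Rrm2, Cdc6, Slbp, Ccne2, and Pclaf. Rrm2, the regulated subunit of ribonucleotide reductase, stood at 367 and 266 in progenitors and at 790 and 826 in the cluster. Ccne2 stood at 41.1 and 28.0 against 142 and 132. Ccne1 stood at 141 and 101 against 120 and 78.1, so in CPM the cyclin E genes moved apart. Genes of like role were on both sides in CPM, as Cdt1 and Cdc6, Rrm1 and Rrm2, and Dut and Tyms show. This split depends on the scaling. The trimmed mean (TMM) factors used in the tests below were 1.02 and 0.988 in progenitors but 0.467 and 0.531 in the cluster. Scaling by them would raise every gene of the cluster relative to progenitors. Of the 14 genes lower in CPM, Mcm2, Mcm4, Mcm7, Rrm1, Cdt1, Uhrf1, and Ccne1 would then be higher in both libraries. Mcm3, Mcm5, Mcm6, and Rfc2 would differ in direction between libraries. Only Gins2, Dut, and Hells would stay lower in both, so most of the split would be lost.

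Of the 26 G2/M genes, 23 were higher in the Slc4a1/Hbb-bs cluster in both libraries and none was lower in both, while Kif20b, Cdc20, and Ttk differed in direction between libraries. Ube2c, the ubiquitin-conjugating enzyme of mitotic exit, stood at 348 and 400 CPM in progenitors, at 1689 and 2716 in the cluster, and at 430 and 331 in late erythroblast-like cells. Mki67, a coat protein of mitotic chromosomes, stood at 593 and 224, at 1516 and 910, and at 192 and 218. Cenpf, a kinetochore protein, stood at 116 and 69.1 in progenitors and 547 and 432 in the cluster. From the cluster to late erythroblast-like cells, all 22 S and all 26 G2/M genes were lower in both libraries, as were 31.8% of genes tested, while 19% were higher. These groups were clustered from the same cells and no test was made of these steps.

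**Figure D3:**
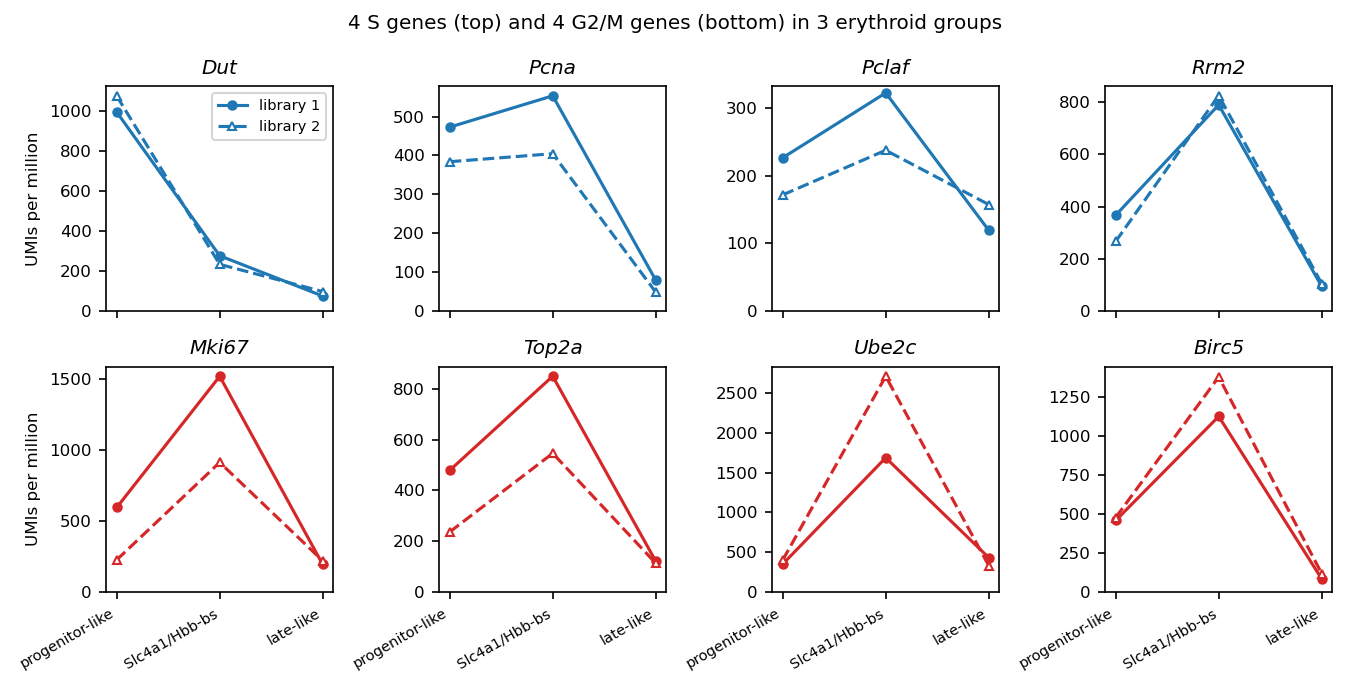
CPM of 4 S genes (top, blue) and 4 G2/M genes (bottom, red), the ones with the most UMIs, in erythroid progenitor-like cells, the Slc4a1/Hbb-bs cluster, and late erythroblast-like cells; solid lines with circles are library 1 and dashed lines with triangles library 2, and each panel has its own axis from 0. Dut is highest in progenitors in both libraries, whereas Rrm2 and the 4 G2/M genes peak in the cluster.

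Erythroid progenitor-like and late erythroblast-like cells were also compared by edgeR's quasi-likelihood test on UMI sums per library and group, with all 22 groups of at least 10 cells in each library in the fit and all 48 members tested. With Benjamini-Hochberg adjustment over 13342 genes at 0.05, 9 S genes were higher in progenitors, where 12% of genes tested were higher, and Nusap1 was lower, where 16.2% were lower. The S genes called were Mcm4, Mcm5, Mcm6, Mcm7, Dut, Tyms, Rfc2, Ccne1, and Fen1. Ccne1 stood at 141 and 101 CPM in progenitors and 4.93 and 8.06 in late erythroblasts, a log2 fold change of 2.92 ± 0.89 (SE; edgeR adjusted p = 0.0112). Dut differed by 2.24 ± 0.54 (edgeR adjusted p = 0.00177) and Rfc2 by 1.98 ± 0.46 (edgeR adjusted p = 0.00137). Among the smallest, Mcm7 differed by 1.31 ± 0.47 and Mcm4 by 1.58 ± 0.59 (edgeR adjusted p = 0.0364 and 0.042).

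The scaling decided much of this comparison. Trimmed mean (TMM) scaling lowered the log2 ratio of every gene by 1.35 relative to plain CPM, on average over the libraries. Nusap1, a spindle protein, stood at 121 and 118 in progenitors against 141 and 149, and its fitted log2 fold change was -1.68 ± 0.57 (edgeR adjusted p = 0.0254). With library size in place of TMM, 35 members were called, all higher in progenitors, 19 S genes and 16 G2/M genes, so the call of Nusap1 as lower was lost. Of all 13342 genes tested, 5122 were then higher, against 1595 with TMM, so the rise was not particular to the members. With the library as a block, 17 members were called, 16 of them higher, where 2068 of 13342 genes tested were higher. Without the barcodes with markers of 2 lineages it was 23, 21 of them higher, where 1808 of 13251 genes were. With genes that follow the members left out of the clustering the direction turned. Then 3 members were higher in progenitors and 15 lower, where 2633 and 1424 of 12825 genes tested were. In that clustering 28.2% of the Slc4a1/Hbb-bs cells were named late erythroblast-like. Of the genes outside the 48, 4 of 6 kinase inhibitors were lower in progenitors, among them Cdkn1b (29.9 and 28.3 against 281 and 294 CPM) and Cdkn2d (27.4 and 23.7 against 70.7 and 92.7), which hold cells out of the cycle. Cdk4, the G1 kinase, stood at 414 and 518 against 36.2 and 16.1 and was higher (log2 fold change 2.49 ± 0.45, edgeR adjusted p = 6.84e-05).

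In the B lineage, pro-B-like cells and the Myl4/Fcrla cluster carried both lists, and pre-B-like and mature B-like cells lower levels. S genes summed to 4813 and 4394 CPM in pro-B-like cells, 6822 and 6757 in the Myl4/Fcrla cluster, 757 and 522 in pre-B-like cells, and 1028 and 760 in mature B-like cells. G2/M genes summed to 4023 and 2469, 7453 and 7059, 818 and 355, and 782 and 411 in the same order. The Myl4/Fcrla cluster, 671 and 282 cells, held 4 of the 6 pre-B markers (Rag2, Vpreb3, Cd79a, and Cd79b) but no pre-B marker among its 10 leading genes, and stayed unnamed. It had the highest S level of any group in both libraries.

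From pro-B-like cells to the Myl4/Fcrla cluster, 19 of 22 S genes and all 26 G2/M genes were higher in both libraries, as were 33.5% of genes tested, while Tyms, which makes thymidine nucleotides, was lower, as were 32.7%. Pclaf, a partner of Pcna, stood at 742 and 629 CPM in pro-B-like cells, 1291 and 1221 in the cluster, 49.1 and 18.5 in pre-B-like cells, and 63.3 and 55.6 in mature B-like cells. Top2a, which untangles copied DNA, stood at 646 and 267, 1249 and 763, 110 and 23.1, and 107 and 32.4. From the cluster to pre-B-like cells all 48 members were lower in both libraries, as were 28.6% of genes tested, while 37% were higher. From pre-B-like to mature B-like cells, 14 S genes and 4 G2/M genes were higher in both libraries, where 26.1% of all genes were, and 4 S genes and 9 G2/M genes were lower, where 30.6% were.

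At matched depth, 86.8% and 75.7% of cells in the Myl4/Fcrla cluster were S-positive and 84.6% and 75.4% G2/M-positive, against 65.3% and 53.5% and 55.6% and 33.5% of pro-B-like cells. Pre-B-like cells were S-positive in 22.8% and 20.8% and G2/M-positive in 9.06% and 6.25%. Mature B-like cells were S-positive in 35.5% and 34.1% but G2/M-positive in only 9.75% and 3.59%. The S shares of both lay above the background. In mature B-like cells the S genes were uneven: Pcna was highest, at 126 and 122 CPM, and Ccne1 (3.64 and 0) and Cdc6 (5.82 and 0) lowest. Whether S-positive cells were in S phase was not tested. The G2/M shares lay below the limit of 9.09% in library 2. In library 1 they lay below the 12.5% of the background cells, but without the barcodes with markers of 2 lineages the order turned: pre-B-like cells then had 8.98% (exact 95% interval 7.40% to 10.8%) and mature B-like cells 9.49% (6.497% to 13.3%), against 4.05% (1.96% to 7.32%) in the background. In library 1 with these barcodes left out, the interval of pre-B-like cells lay above that of the background, and that of mature B-like cells overlapped it. This filter was added after the data were seen. It took out 20.5% of the background cells, but 0.162% of pre-B-like and 0.621% of mature B-like cells. The intervals count cells of 1 library, and whether the shares differ was not tested.

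The pro-B-like cells were of 2 kinds. The cluster led by Vpreb1 and Dntt, which encode part of the surrogate light chain and the enzyme that adds bases to antibody gene joints, had S levels of 2828 and 1322 and G2/M levels of 3481 and 1233 CPM. The cluster led by Bfsp2 and Igll1 had S levels of 5321 and 5843 and G2/M levels of 4162 and 3052. All 22 S genes and 22 of 26 G2/M genes were higher in the Bfsp2/Igll1 cluster in both libraries, as were 22.9% of genes tested, while 43.9% were lower. Its cells were also deeper, with a median of 27562 and 16557 UMIs against 5121 and 4852. At matched depth 94.6% and 85.6% of them were S-positive, against 39.1% and 34.9% of the Vpreb1/Dntt cells.

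Tested by edgeR, 42 members were higher in pro-B-like than in mature B-like cells and none lower, with 7.01% of genes tested higher and 4.92% lower. They were 18 of 22 S genes and 24 of 26 G2/M genes. Gins2, a subunit of the replicative helicase complex, stood at 84.8 and 91.1 CPM in pro-B-like cells and 6.55 and 1.16 in mature B-like cells, a log2 fold change of 4.46 ± 0.71 (edgeR adjusted p = 4.5e-05). Ccne1 stood at 40.2 and 33.9 against 3.64 and 0 (4.18 ± 0.98, edgeR adjusted p = 0.00331). Rrm2 stood at 256 and 294 against 24.0 and 18.5 (3.77 ± 0.87, edgeR adjusted p = 0.00314). These genes were picked for large fold changes among the members called, so the lack of overlap between their groups adds no support. Mki67 stood at 420 and 152 against 61.1 and 16.2 (2.97 ± 0.90, edgeR adjusted p = 0.024), and Top2a at 646 and 267 against 107 and 32.4 (2.80 ± 0.78, edgeR adjusted p = 0.014). The smallest calls were Mcm7 (1.70 ± 0.47), Kif20b (1.71 ± 0.56), and Slbp (1.76 ± 0.59), the last with edgeR adjusted p = 0.0482.

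Other cell-cycle genes were called in the same comparison. Of 9 replication genes 8 were higher in pro-B-like cells, among them the licensing inhibitor Gmnn (210 and 228 against 41.5 and 22.0 CPM) and Orc6 (120 and 145 against 22.6 and 22.0). Of 11 mitotic regulators 6 were higher, among them Fbxo5 and Prc1. Of 6 G1 cyclins and kinases Cdk4, Cdk6, and Ccnd3 were higher. Cdkn1a, an inhibitor, was higher too, at 88.4 and 174 against 13.8 and 10.4 (3.49 ± 0.66, edgeR adjusted p = 0.000439).

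Pre-B-like and mature B-like cells did not differ in any member by edgeR, where 0.18% of genes tested were higher and 0.66% lower. At an unadjusted p under 0.05 there were 0 higher and 1 lower, and DESeq2 called 1, lower. This misses the threshold and does not show that they are alike: Dut stood at 41.4 and 46.2 CPM in pre-B-like cells and 96.1 and 57.9 in mature B-like cells (log2 fold change -0.77 ± 0.52, edgeR adjusted p = 0.884). Of 6 G1 cyclins and kinases 1 was called, Ccnd2, at 10.7 and 5.28 against 233 and 92.7 (-4.20 ± 0.77, edgeR adjusted p = 0.00264) and of the transcription factors Myc was, at 0.767 and 4.62 against 24.7 and 80.0 (-4.49 ± 0.85, edgeR adjusted p = 0.00301). Both comparisons share the mature B-like sums. The result changed with the clustering. With genes that follow the members left out of it, 34 members were called, all higher, where 277 of 12825 genes tested were higher. In that clustering 97.0% of the Myl4/Fcrla cells were named pre-B-like. Other groups changed as well, and whether these cells made the difference was not tested.

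In the neutrophil lineage, both lists were carried by promyelocyte-like cells and by an early cluster of immature neutrophils. S genes summed to 3011 and 2921 CPM in promyelocyte-like cells, which make granule enzymes such as Mpo and Elane. They summed to 2918 and 2668 in the immature cluster led by Fcnb and Chil3 and to 222 and 253 in that led by Mmp8, a neutrophil collagenase. G2/M genes summed to 2854 and 2291, 3779 and 3589, and 635 and 234. From promyelocyte-like cells to the Fcnb/Chil3 cluster, 20 of 26 G2/M genes were higher in both libraries and Ccnb1 and Cdc20 lower, with 18.4% of genes tested higher and 47.4% lower. Of the 22 S genes, 11 were lower, a share near that of all genes, with Mcm2 to Mcm7 among them, and 6 were higher, which were Rrm2, Cdc6, Slbp, Ccne1, Ccne2, and Pclaf.

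All of these but Ccne1 were also among the 7 that were higher in the Slc4a1/Hbb-bs cluster than in erythroid progenitors. The share of all genes higher in both steps was not counted, so this overlap has no background. Both steps use plain CPM. Immature neutrophil-like cells, both clusters together, had TMM factors of 0.667 and 0.613, against 1.02 and 0.989 in promyelocyte-like cells. TMM scaling would thus raise the later group here too, and directions may change under it. Rrm2 stood at 176 and 153 CPM in promyelocyte-like cells and 321 and 298 in the Fcnb/Chil3 cluster, and Mcm6 at 183 and 162 against 108 and 66.0. From the Fcnb/Chil3 to the Mmp8 cluster all 48 members were lower in both libraries, as were 38.6% of genes tested, while 19% were higher. At matched depth, 89.0% of 100 and 95% of 20 promyelocyte-like cells were S-positive and 83.0% and 80.0% G2/M-positive. In the Mmp8 cluster the S share was 5.76% and 3.85% and the G2/M share 6.27% and 1.92%.

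Mature neutrophil-like cells differed between libraries. Their S level was 1278 CPM in library 1 and 204 in library 2, and their G2/M level 1771 and 236. In library 1, the 23 of 317 cells with the most G2/M UMIs after thinning held 89.7% of the members' UMIs. They were picked by UMIs of members, so a high share was partly built in. Their median depth was 18882 UMIs, against 4196.5 in the other cells. Without the barcodes with markers of 2 lineages, the levels of library 1 were 186 and 133.

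Against these cells, edgeR called 11 of 48 members higher in promyelocyte-like cells and none lower, with 18.8% of genes tested higher and 14.3% lower. The share of members was thus near that of all genes, and that of the 26 G2/M genes was below it. They were 8 S genes, Mcm5, Mcm6, Mcm7, Dut, Tyms, Rfc2, Gins2, and Hells, and 3 G2/M genes, Cdk1, Aurkb, and Tacc3. Hells, a chromatin remodeler, stood at 111 and 72.8 CPM against 14.2 and 0 (log2 fold change 2.62 ± 0.66, edgeR adjusted p = 0.00213), and Dut at 472 and 471 against 102.9 and 19.2 (2.34 ± 0.54, edgeR adjusted p = 0.00106). Mki67 did not pass the test, at 196 and 68.7 against 280 and 12.8. Without the barcodes with markers of 2 lineages, 44 members were called, all higher, where 3133 of 13251 genes tested were higher. Without the top 5% of doublet scores it was 46, all higher, where 3614 of 13265 genes were. Cdkn1b and Cdkn2d were again lower in the early cells, Cdkn2d at 68.5 and 61.4 against 367 and 166 (-2.45 ± 0.46, edgeR adjusted p = 9.54e-05).

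Other blood cells carried intermediate levels. Monocyte/macrophage-like cells summed to 2435 and 1470 CPM for S genes and 3061 and 2373 for G2/M genes. At matched depth 49.6% of 232 and 30.0% of 70 were S-positive and 42.2% and 22.9% G2/M-positive. In the Ccl5/Mcpt8 cluster, led by Ccl5, Mcpt8, and Gzma and holding the progenitor markers Kit, Flt3, Meis1, and Cd34, 68.0% and 57.1% were S-positive and 31.1% and 22.9% G2/M-positive.

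Among stromal cells, the summed G2/M level was higher in osteogenic progenitor-like cells than in osteoblast-like and chondrocyte-like cells. No single G2/M gene was, however, called between osteogenic progenitor-like and osteoblast-like cells in the edgeR test below. The summed level was lowest in tenocyte-like cells and the Col10a1/Mgp cluster, the latter at 43.9 and 22.9 CPM. Osteogenic progenitor-like cells, 32 and 68 cells with Mmp13 among their leading genes beside Mmp9 and Fabp5, summed to 510 and 935 CPM for G2/M genes and 864 and 630 for S genes. At matched depth 13.8% (4 of 29) and 17.0% (9 of 53) were G2/M-positive and 20.7% and 24.5% S-positive. In library 2 this G2/M share, with an exact 95% interval of 8.07% to 29.8%, stood above the 0 of 33 background cells, although its interval reached below the 9.09% that this count allows. In library 1 it was 13.8% (3.89% to 31.7%) against 12.5% in the background, or 14.3% against 4.05% without the barcodes with markers of 2 lineages. The 4 and 9 positive cells together held erythroid markers at 292 and 51.7 CPM, against 498 and 195 in the other cells of the group, so their pooled erythroid level was not above that of their neighbours. The median positive cell held 337 and 51.6, against 429 and 26.6, and was thus higher in library 2. Pooled, the positive cells held collagen I and III genes at 12528 and 28527 CPM against 16758 and 46255. They held osteoblast markers at 9000 and 26650 against 21757 and 37110, and were thus lower in both. By the median cell, those of library 1 were higher in both, at 5430 against 2962 and 4978 against 2632. Those of library 2 were lower, at 9363 against 17251 and 4931 against 12921. The name of the group depended on the clustering. With cell-cycle genes among the features, 49% of its 100 cells were named Lepr+ stromal-like and 48% osteoblast-like, at resolution 0.4 96% were Lepr+ stromal-like, and with genes that follow the members left out 71% formed an unnamed cluster led by Mmp9 and Fabp5.

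Chondrocyte-like cells, which express Col9a3, Matn3, and Cnmd, were G2/M-positive in 11.1% (3 of 27) and 7.56% (9 of 119), with levels of 264 and 189 CPM. Their G2/M-positive cells held chondrocyte markers at 76859 and 61858 CPM, against 97734 and 69368 in the negative ones. Osteoblast-like cells were G2/M-positive in 4.35% (4 of 92) and 5.88% (10 of 170). Of their 3 clusters, the one led by Ifitm5 held 4 and 7 of these cells. It had a G2/M level of 326 and 531 CPM, against 113 and 154 in the cluster led by Gal. The 4 positive osteoblast-like cells of library 1 together held erythroid markers at 9654 CPM, against 1061 in the negative ones. Their median cell, however, held 499 against 370. The 10 positive cells of library 2 together held 102 against 99.4. Without the barcodes with markers of 2 lineages, 3 of 88 osteoblast-like cells of library 1 were G2/M-positive. In library 2 the shares of both groups were below the limit of 9.09%. In library 1 both were below the 12.5% of the background. Without the barcodes with markers of 2 lineages, of which chondrocyte-like cells had none, the background was 4.05% (1.96% to 7.32%), against 11.1% (2.35% to 29.2%) for chondrocyte-like and 3.41% (0.709% to 9.64%) for osteoblast-like cells. These intervals overlapped, but whether the shares differ from the background was not tested.

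Fibroblast-like cells held fewer G2/M than S UMIs, at 81.5 and 70.3 CPM for G2/M genes against 428 and 315 for S genes. In library 2, 1 of 290 was G2/M-positive (0.345%, exact 95% interval up to 1.91%), below the intervals of osteoblast-like (2.86% to 10.6%) and chondrocyte-like cells (3.52% to 13.9%). In library 1 it was 0 of 19, which allows a share of up to 15.8%. S-positive cells made up 21.1% (6.05% to 45.6%) and 10.3% (7.09% to 14.4%), against 9.65% (6.60% to 13.5%) and 3.03% (0.0767% to 15.8%) of the background cells, and these intervals overlapped in both libraries. Tenocyte-like cells, present in library 2, had 9 of 77 S-positive and 0 of 77 G2/M-positive, which allows up to 3.90%, and a G2/M level of 12.8 CPM against 295 for S genes. The Tcim/Ddit4l cluster had 27.1% S-positive and 0 of 48 G2/M-positive cells in library 2. Dut, Pcna, and Slbp, a histone mRNA-binding protein, made up 37.2% and 52.9% of stromal S UMIs, against 30.5% and 33.8% in blood.

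Lepr+ stromal-like cells, which express Adipoq and Cxcl12, had S levels of 957 and 2271 and G2/M levels of 824 and 1717 CPM in 76 and 10 cells. Barcodes with markers of 2 lineages made up 22.4% and 30.0% of the group. Without them the S level was 445 and 645, the G2/M level was 85.5 and 28.0, and 0 of 55 cells in library 1 were G2/M-positive instead of 4 of 68, which allows a share of up to 5.45%. The 4 positive cells held erythroid markers at 47990 CPM. The Igkc/Vpreb3 cluster, grouped with stroma although B-lineage genes such as Igkc, Vpreb3, and Cd79b led it, had G2/M levels of 2688 and 2907 CPM. By the rule used here, 72.7% and 81.5% of its barcodes had markers of 2 lineages.

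**Figure D4:**
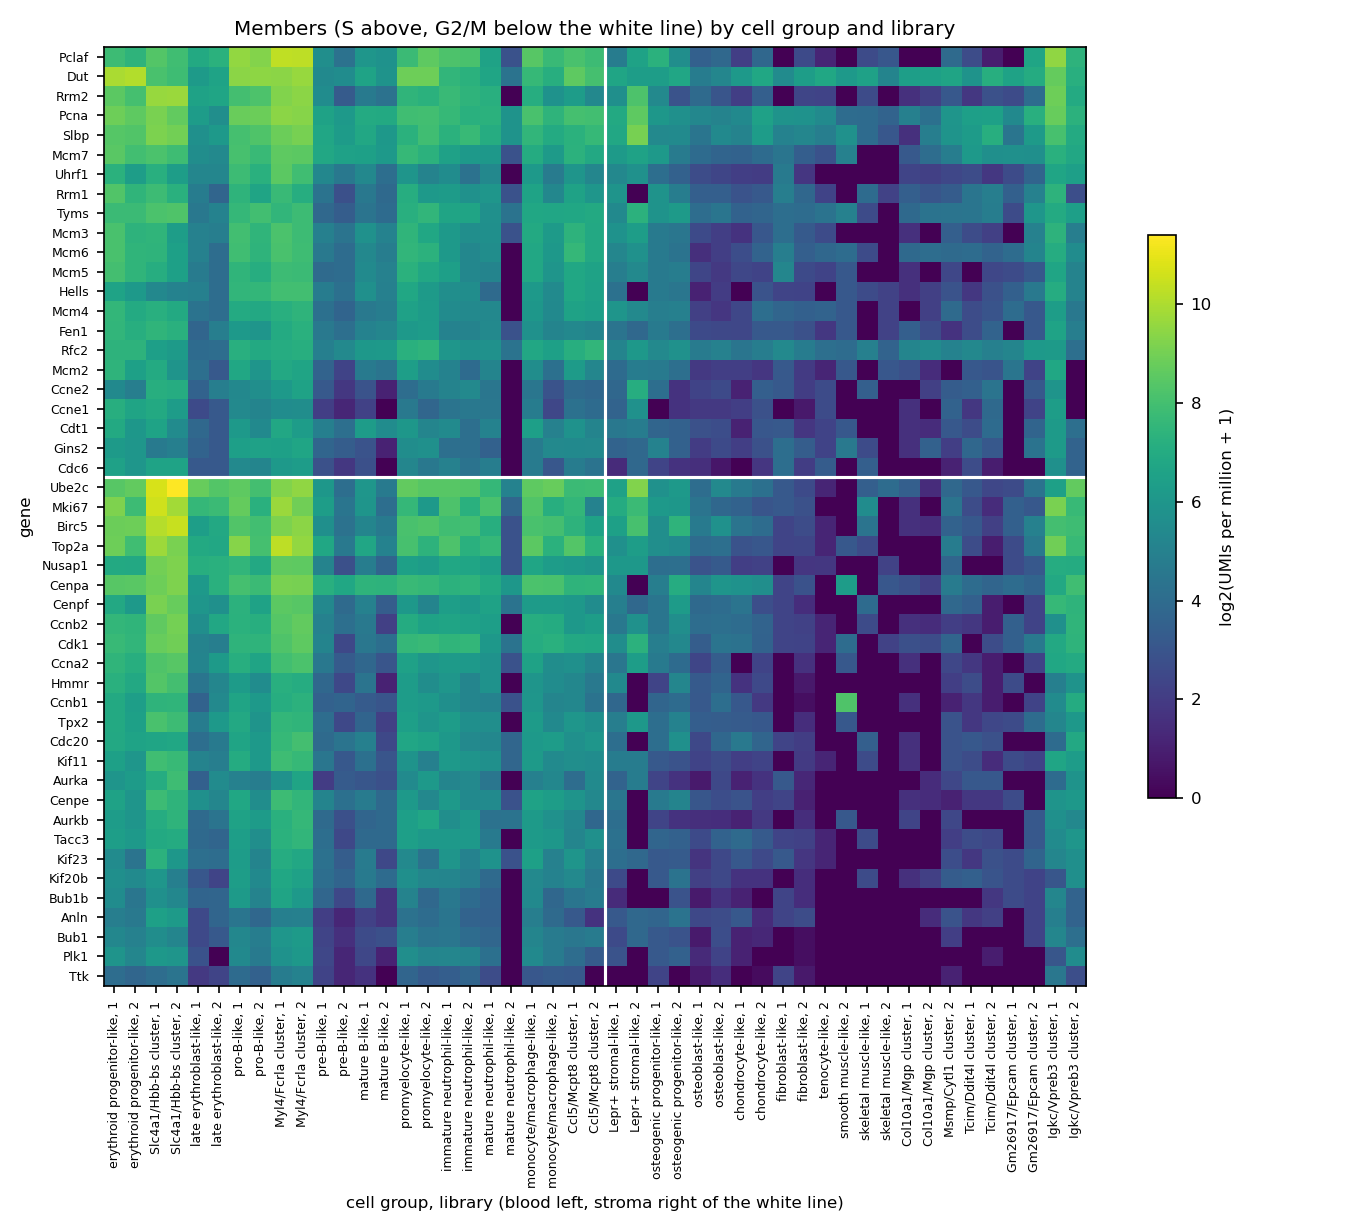
Level of each of the 48 members (rows, S above and G2/M below the white line) in each cell group and library (columns, blood left and stroma right), as log2 of CPM plus 1, in groups with at least 10 cells. Levels are high in erythroid progenitors, the Slc4a1/Hbb-bs cluster, pro-B-like cells, and the Myl4/Fcrla cluster, and most G2/M rows are near 0 in tenocyte-like, skeletal muscle-like, and Col10a1/Mgp cells, where Dut stays above most of them.

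Stromal types were compared with osteoblast-like cells, whose sums enter each of these comparisons. In fibroblast-like cells, edgeR called 11 G2/M genes lower and no S gene, with 9.13% of genes tested higher and 6.42% lower. The 11 were Ccnb1, Ccnb2, Cdk1, Birc5, Ube2c, Cenpa, Cenpe, Cenpf, Bub1, Hmmr, and Tpx2. Ccnb1, the mitotic cyclin, had 0 and 0.355 CPM, against 8.07 and 16.5 among osteoblast-like cells (log2 fold change -5.47 ± 1.05, edgeR adjusted p = 0.000231). Birc5, which guards chromosome attachment, stood at 4.08 and 5.33 against 24.2 and 53.8 (-3.40 ± 0.81, edgeR adjusted p = 0.00271). Hmmr, a spindle protein, stood at 0 and 0.71 against 8.45 and 11.9 (-4.32 ± 1.24, edgeR adjusted p = 0.0134). Dut did not pass the test, at 44.8 and 81.0 against 26.5 and 36.4 (0.54 ± 0.53). The library 1 sum rested on 19 fibroblast-like cells, and TMM scaling lowered all log2 ratios by 0.61 against CPM. With library size in place of TMM, 8 G2/M genes were lower and 2 S genes higher, where 509 and 2024 of 13342 genes tested were. Cdkn1c, an inhibitor, was higher in fibroblast-like cells, at 289 and 200 against 22.7 and 18.7 (2.93 ± 0.58, edgeR adjusted p = 0.000341).

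In osteogenic progenitor-like cells, 2 S genes were higher than in osteoblast-like cells and none lower, with 2.31% of genes tested higher and 1.53% lower. None of the 26 G2/M genes was called, and their lowest edgeR adjusted p was 0.159. Hells stood at 24.5 and 21.5 CPM against 1.15 and 3.06 (2.83 ± 0.76, edgeR adjusted p = 0.0244), and the helicase subunit Mcm4 at 28.5 and 30.1 against 3.46 and 2.45 (2.77 ± 0.71, edgeR adjusted p = 0.0176). Mki67 stood at 69.3 and 64.5 against 19.98 and 13.2 and did not pass (1.46 ± 0.91, edgeR adjusted p = 0.514). With the library as a block 6 members were called, all higher, where 508 of 13342 genes tested were higher. Without the barcodes with markers of 2 lineages it was 5, all higher, where 335 of 13251 genes were. E2f1, which activates S genes, was higher, at 20.4 and 25.8 against 3.46 and 2.45 (2.45 ± 0.67, edgeR adjusted p = 0.029).

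Between chondrocyte-like and osteoblast-like cells no member was called by edgeR, with 5.17% of genes tested higher and 4.84% lower. At an unadjusted p under 0.05 there were 3 higher and 2 lower, and DESeq2 called 2. For this comparison the test called 29% of simulated log2 changes of 2 and 0% of changes of 1, so the groups may still differ. With the library as a block 5 members were called, 3 higher and 2 lower, where 1029 and 983 of 13342 genes tested were. Dut, at 71.5 and 111 against 26.5 and 36.4 CPM, then had an edgeR adjusted p of 0.0296 instead of 0.0808. Dut was then higher than in osteoblast-like cells in both libraries. Cdkn1c was the clearest cell-cycle difference, at 3713 and 1327 against 22.7 and 18.7 CPM (6.78 ± 0.68, edgeR adjusted p = 8.65e-09). The 7 comparisons have 2 sums a group, and fold changes of genes at a few UMIs depend on the model's prior count.

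**Figure D5:**
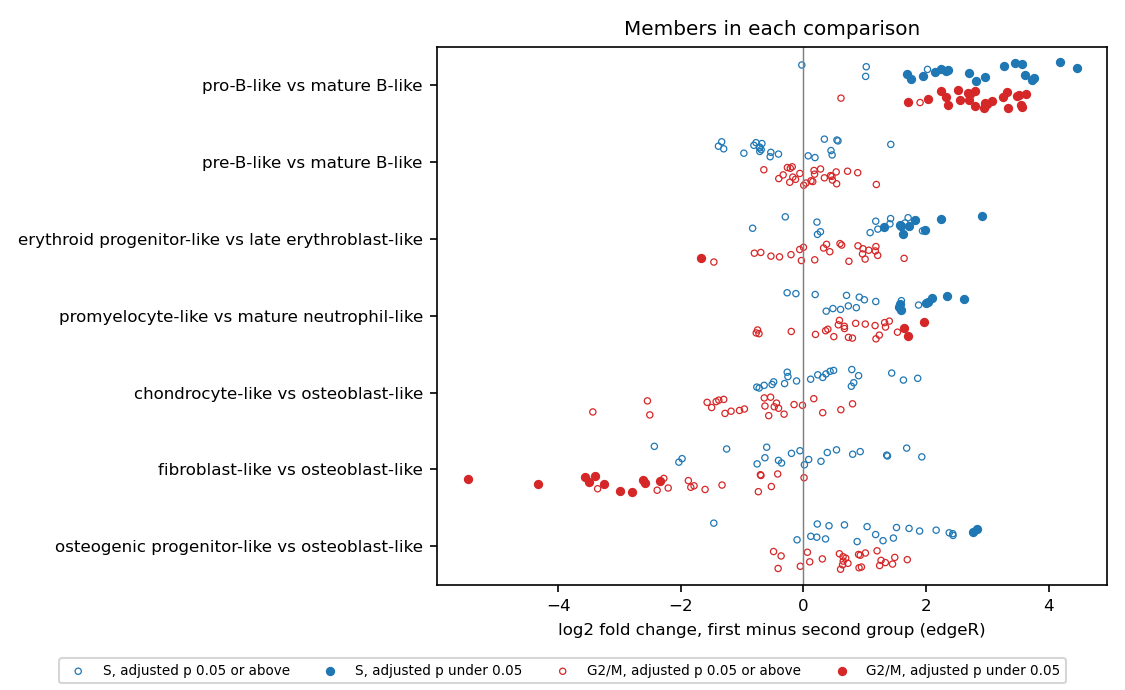
Log2 fold change (edgeR, TMM scaling) of each member in the 7 comparisons, the group named first minus the group named second; blue is S and red G2/M, and filled points have an adjusted p under 0.05. Pro-B-like cells have 42 filled points to the right of 0, fibroblast-like cells 11 G2/M points to the left, and pre-B-like and chondrocyte-like cells none.

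The libraries differed in some members across most cell groups. Mki67 was higher in library 1 in 20 of 22 groups, and in blood cells stood at 532 CPM in library 1 and 216 in library 2, a ratio of 2.46. Pooled over blood cells, Rrm1 (ratio 2.07), Mcm2 (2.01), Cdt1 (1.94), and Top2a (1.78) were higher as well. By group they were higher in library 1 in 19, 19, 17, and 16 of 22. Aurka (0.872) was lower in the pool and higher in library 1 in 6 groups. Pclaf (0.826) was lower in the pool, although it was higher in library 1 in 13 groups. The mix of blood groups differed between the libraries, and the pooled ratios were not corrected for it. Over 12800 genes the median ratio was 0.926, 44 of the 48 members lay above it, and 2.98% of genes had a ratio at or above that of Mki67. Why they differ was not tested, and no library difference was read as a difference between cells.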

How the data were processed

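The files held raw UMI counts per gene and barcode of 2 droplet libraries. Per the submitters' processing notes and the labels, the authors deposited counts made with Cell Ranger 6.1.2 on mm10, without normalization or pooling. Barcodes with at least 500 genes, at least 500 UMIs, and at most 10% mitochondrial UMIs were kept (6276 and 2893). Cells were clustered with Seurat 5.3.0 in R 4.3.3 (CCA integration, 30 anchor dimensions, 15 principal components, resolution 0.8) on 2869 of 3000 variable genes, after 479 cell-cycle genes were kept out of the features, and stroma was clustered again. Clusters were named from fixed marker lists. A barcode was counted as one with markers of 2 lineages when, in a cluster of another lineage, erythroid or neutrophil markers reached 5000, B-lineage markers 2000, or collagen genes 5000 CPM. Its level of the markers of its own cluster was not part of the rule. The Ccl5/Mcpt8 and Gm26917/Lars2 clusters were exempt from this rule. Scrublet (scanpy 1.11.5) marked 124 cells (1.98%) in library 1 and 1 (0.0346%) in library 2, so it had not worked in library 2, and no cell was removed in the results given.

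Counts were summed per library and group and tested with edgeR 4.0.16 (quasi-likelihood, filterByExpr, TMM, 22 groups of at least 10 cells in each library, Benjamini-Hochberg adjusted p under 0.05 over 13342 genes). The steps were tested on simulated data with 200 changed genes in each comparison. Of log2 changes of 2, 16% to 29% were called, and of log2 changes of 1, 0% to 4%. At most 3.85% of the genes called were false. In the simulated data the test thus missed most changes of this size. Unlike the real data, these had only 200 changed genes and sums drawn independently of the library. The shares recovered may therefore not hold for the real comparisons. A member not called may still differ. Summed levels have exact Poisson and shares exact Clopper-Pearson 95% intervals (scipy 1.17.1, Python 3.11.15). A count of 0 allows a share of 3 counts over the total. Groups of 1 library are the same cells' library, so the library pairs the sums: of 231 pairs of groups the lowest correlation of deviations was 0.0242, the median 0.129, and 153 were over 0.1. Genes named in each comparison were the 3 largest and 3 smallest log2 fold changes among members called and the 4 members of each list with the most UMIs. Other genes named, outside this rule, were chosen after their values were seen. The members, the lists, and the comparisons were chosen with earlier results of these data known. Alternatives were DESeq2 1.42.0, no filter, the library as a block, other clusterings, other depths and thresholds, and cells left out; library size in place of TMM, the top 5% of Scrublet scores, and barcodes with markers of 2 lineages were added after the data were seen.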

Additional observations from a re-analysis of the deposited data

Results flagged for a closer look

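Barcodes that the filter left out, 3656 in library 1 and 766 in library 2, also held UMIs of these genes, above what a count of 0 allows (0.343 and 1.17 UMIs per 1000000, CPM). Their S level was 385 CPM in library 1 and 163 in library 2, and their G2/M level 1051 and 408. Their median depth was 1029.5 and 1294 UMIs, and no comparison used them. With 2 samples no outlier test was made.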

How the results depend on the processing

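Of 80 recomputed counts of called members, 45 stayed within 1.5 times, 34 moved, and 1 reversed; of 36 shares, 17 moved, 1 of them with the mitochondrial limit and the others with the depth or the number of genes. The number of all genes called also changed between settings and is not given with each count here. Counts for pro-B-like against mature B-like cells moved under none of the alternatives run. Members called between pre-B-like and mature B-like cells (0) became 1 with DESeq2, 26 with cell-cycle genes among the clustering features, 34 with correlated genes left out, and 29 at resolution 1.2. In the last 3, 45.4%, 97.0%, and 29.3% of Myl4/Fcrla cells were named pre-B-like.

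For erythroid progenitor-like against late erythroblast-like cells (10), the count was 18 without a filter, 17 with the library as a replicate block, 35 with library size, 23 with cell-cycle features, 18 without the top 5% of Scrublet scores, 16 without hemoglobin genes, and 23 without barcodes with markers of 2 lineages. With correlated genes left out it was 18, of which 3 were higher and 15 lower, and 28.2% of Slc4a1/Hbb-bs cells were then named late erythroblast-like. For promyelocyte-like against mature neutrophil-like cells (11), it was 5 with DESeq2, 20 with library size, 43 with correlated genes left out, 21 at resolution 1.2, 22 without cells marked by Scrublet, 46 without the top 5%, and 44 without barcodes with markers of 2 lineages.

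For chondrocyte-like against osteoblast-like cells (0), it was 2 with DESeq2, library size, Scrublet, the top 5%, or the 2-lineage barcodes left out, 3 without a filter, 5 with the replicate block (3 higher, 2 lower), 5 with cell-cycle features (0 higher, 5 lower), and 1 at resolution 1.2. For fibroblast-like cells (11) it was 19 without a filter. For osteogenic progenitor-like cells (2) it was 6 with DESeq2, no filter, or the replicate block, 9 with library size, 8 without the top 5%, and 5 without the 2-lineage barcodes. The block moved no other count by over 1.5 times.

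Without 1 library no spread is left, so medians of log2 ratios are given without a test. The median S gene in chondrocyte-like cells moved from -0.16 to between -0.55 and 0.55, and in fibroblast-like cells from 0.07 to between -0.24 and 0.0545. In promyelocyte-like cells the median S gene moved from 2.80 to between 0.73 and 5.00, and the median G2/M gene from 2.18 to between 0.43 and 3.50. The share of cells with S or G2/M genes, 16.3% of stroma in both libraries and 61.2% and 51.2% of blood, was 6.95%, 6.104%, 51.4%, and 40.0% at 1000 UMIs and 32.0%, 32.6%, 80.9%, and 77.7% at 4000. With 1 gene enough it was 54.0%, 49.1%, 83.6%, and 81.3%, and with 3 genes needed 8.79%, 5.89%, 50.6%, and 37.7%. At 5% mitochondrial UMIs it was 67.9% for blood of library 1. The regrouping of cells is given for some of these changes, but their cause was not tested. Comparisons of promyelocyte-like and osteogenic progenitor-like cells were not run with cell-cycle features, nor of the latter with correlated genes left out or at resolution 0.4, since the group was then absent.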

Other observations

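One cluster of 63 and 9 cells was led by the non-coding transcript Gm26917, Lars2, and histone genes (Hist2h3b, Hist1h4c, Hist1h3a, and Hist1h2ai). The marker rule used for naming placed it in neither blood nor stroma, and it entered no comparison. Its S level was 3337 CPM in library 1 and 3803 in library 2, and its G2/M level 5032 and 2472. Its cells were shallow, with a median of 1969 and 1118 UMIs. It held erythroid markers at 35447 and 2472 CPM, with the median cell at 3088 and 2033. Erythroid progenitor-like cells held them at 14265 and 9532, with the median cell at 8788 and 7589. Collagen I and III genes stood at 126 CPM in the cluster in library 1. In library 1, 31 cells reached 2000 UMIs, of which 28 were S-positive (90.3%) and 31 G2/M-positive.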
